A study of Mus musculus with 4 samples.

Results

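The genes described here encode digestive enzymes made by the acinar cells of the exocrine pancreas, together with a pair of transcription factors of the pancreas. They were read in RNA-seq libraries of cells labelled as derived from primordial germ cells of C57BL/6 mice at E12.5. Of the 53715 genes in the table, 9 were taken by symbol, namely the carboxypeptidase genes Cpa1 and Cpb1, the serine protease genes Prss2, Cela1 and Ctrb1, the lipase genes Cel and Pnlip, and the regulators Pdx1 and Ptf1a. Cpa1 and its companions were chosen because Cpa1 was high in some of these same libraries, so their levels are given as a description; the fits over all genes include those that passed the filter on low counts, and their calls are printed without being read as support. The libraries were 2 labelled WT (wild type) and 2 labelled Rif1_KO (Rif1 knockout), each made by a modified Smart-seq2 protocol from 1000 cells enriched with magnetic beads. Rif1 encodes a chromatin protein that acts in replication timing and break repair. The labels do not give the marker used for the enrichment, the deleted part of Rif1, the sex of the embryos, or whether libraries of a label came from separate embryos. The fitted errors and p-values given below therefore reflect the spread among these libraries only, and that spread may be technical.

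The exocrine pancreas makes digestive enzymes in acinar cells, mostly as inactive precursors, and releases them into the gut. In the embryo Pdx1 marks the pancreatic and duodenal endoderm, and Ptf1a is needed for the pancreas to form and later drives the acinar enzyme genes as part of the PTF1 complex. Cpa1 is known in the embryonic pancreas as a marker of the progenitor cells at the tips of the branching epithelium. Acinar enzyme genes are typically expressed together at high levels in the mature organ, and none of them is a known marker of germ cells or of the gonad.

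Cpa1 and Pnlip were abundant in both libraries labelled Rif1_KO, so the sequences at their starts are shown here. A promoter sequence was found in RefSeq (GRCm38.p6, the build called mm10) for 9 of 9 genes, each running from 250 bases before the gene start to 50 bases after it. The windows are chr6:30638968-30639267 on the plus strand for Cpa1 and chr19:58670115-58670414 on the plus strand for Pnlip. They are written 5′ to 3′, and capitals mark matches on either strand to the motif CANNTG (the E-box core that bHLH factors such as Ptf1a bind), TGGGAAA (a form of the TC-box of the PTF1 site) and TATAAA (the form of the core promoter element that TBP binds).
Cpa1: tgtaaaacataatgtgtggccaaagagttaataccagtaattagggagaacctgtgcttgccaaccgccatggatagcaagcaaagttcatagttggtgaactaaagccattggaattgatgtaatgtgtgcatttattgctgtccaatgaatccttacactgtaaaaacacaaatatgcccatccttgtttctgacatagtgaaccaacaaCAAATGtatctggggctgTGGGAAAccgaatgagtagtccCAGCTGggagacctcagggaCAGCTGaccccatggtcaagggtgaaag
Pnlip: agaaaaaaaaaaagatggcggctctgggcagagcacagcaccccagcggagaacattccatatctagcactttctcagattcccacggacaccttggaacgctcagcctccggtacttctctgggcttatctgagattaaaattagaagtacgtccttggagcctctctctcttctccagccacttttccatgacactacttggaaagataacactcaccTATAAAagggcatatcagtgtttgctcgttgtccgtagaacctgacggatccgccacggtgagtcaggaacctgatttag
The Cpa1 window held 3 CANNTG matches, CAAATG at -38 and CAGCTG at 3 and 23, and a TGGGAAA match at -20, each position being that of the leftmost base counted from the gene start. In the Pnlip window no CANNTG or TGGGAAA match was found, and TATAAA lay at -30. A CANNTG match was present in 7 of the 9 windows, against 72.3% of 32851 promoters of the same length, and TGGGAAA in 4 (Cpa1, Cel, Prss2 and Ctrb1), against 8.06%. TATAAA was present in 4 (Cpb1, Prss2, Cela1 and Pnlip), against 13.6%. The E-box form CACCTG, which is one of the CANNTG sequences, was present in 5, against 20.2%. These are matches of letters and not evidence of binding. The windows of Cpa1 and Pnlip, the genes with high counts, had no motif in common among those searched.

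Rif1 itself was read beside the labels. Its counts were 474 in WT replicate 1 and 44 in WT replicate 2, but 1144 and 1207 in replicates 1 and 2 of Rif1_KO. Pairs of values below follow this replicate order. The fitted log2 fold change of Rif1 was 1.63 (SE 1.01, edgeR adjusted p = 0.717). As the deleted part of Rif1 is not given, counts over the whole gene cannot show whether the labels hold. Each library is therefore called by its label, and every direction given is between labels. Totals ran from 11724630 to 14421298 counts. CPM values are relative to the TMM-scaled total of the tested genes, and TPM values, which are also scaled by gene length, come from the exon lengths in the table and are not TMM-scaled.

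Among the carboxypeptidases, Cpa1 (ENSMUSG00000054446.8, chromosome 6, 30639218 to 30645363, mm10, plus strand, 1750 exonic bases) encodes an enzyme that removes aromatic and aliphatic residues from the ends of peptides. It had 1 and 2 counts in the WT libraries, against 679 and 806 in the libraries labelled Rif1_KO. The labels did not overlap, and both libraries labelled WT were at or under 3 counts, taken here as the floor of detection. On the CPM scale the level was 0.154 ± 0.0869 under the label WT and 46.9 ± 5.99 under the label Rif1_KO (SD, n = 2 each). From summed counts the ratio was 310, with an exact 95% interval of 106 to 1507 for counting error alone, as reads without molecular identifiers are not independent molecules. With the totals as deposited in place of the TMM-scaled totals, the ratio was 458 (156 to 2222). The fitted log2 fold change was 8.19 (SE 1.32), a value that depends on the prior count edgeR adds, because the WT counts are so few. Cpb1, whose enzyme removes basic residues, had 0 and 5 counts against 18 and 1. Only Rif1_KO replicate 1 exceeded 10 counts for Cpb1, and the labels overlapped.

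The lipases differed from each other. Pnlip (ENSMUSG00000046008.7, chromosome 19, 58670365 to 58681786, plus strand, 1485 exonic bases) encodes pancreatic triglyceride lipase, and had 5 and 2 counts in the libraries labelled WT against 236 and 390 in those labelled Rif1_KO. As for Cpa1, both libraries labelled Rif1_KO lay far above both labelled WT. The level was 0.338 ± 0.174 CPM and 19.2 ± 2.03 CPM (SD, n = 2 each), with a fitted log2 fold change of 5.78 (SE 1.55). From summed counts the ratio was 56.1, with an exact 95% interval of 27.1 to 140 for counting error, and 82.7 with the totals as deposited. Cel, the gene for the bile salt-activated lipase that also hydrolyses cholesterol esters, had 7 and 9 counts against 5 and 7, so that its level was under 1 CPM in each of the 4 libraries. In CPM its values did not overlap, the lower ones being those labelled Rif1_KO, a difference that rests on a few counts.

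The serine protease genes had few counts in every library but 1. Prss2, for an anionic trypsinogen, had 8 and 0 counts in the WT libraries, against 1 and 0. Ctrb1, for a chymotrypsinogen, had 0 and 5 counts against 3 and 3. Cela1, for an elastase, had 1 and 3 counts against 1 and 42. The value of 42 counts (2.22 CPM) in Rif1_KO replicate 2 stood alone, since Rif1_KO replicate 1 was at 1 count. Trypsinogen genes form a family of close copies: 22.5% of the 31-base words of the Prss2 transcript also occurred in transcripts of 9 other genes, most often Try4, so reads of this family cannot be assigned with certainty.

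The regulators of the pancreas were at or near the floor, also where Cpa1 and Pnlip were high. Pdx1 had 6 and 0 counts in the libraries labelled WT and 0 in both labelled Rif1_KO, where 0 counts allow up to 0.249 and 0.208 CPM of the deposited totals. Ptf1a had 7 and 1 counts against 1 and 1. WT replicate 2 and both libraries labelled Rif1_KO held the same count, so their order in CPM reflects only the scaled totals. No library labelled Rif1_KO thus held more than 1 count of either regulator. Of the bases of the Ptf1a model, part is shared with the noncoding gene Ptf1aos, and as the counting used no strand, reads of the pair cannot be told apart.

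**Figure D1:**
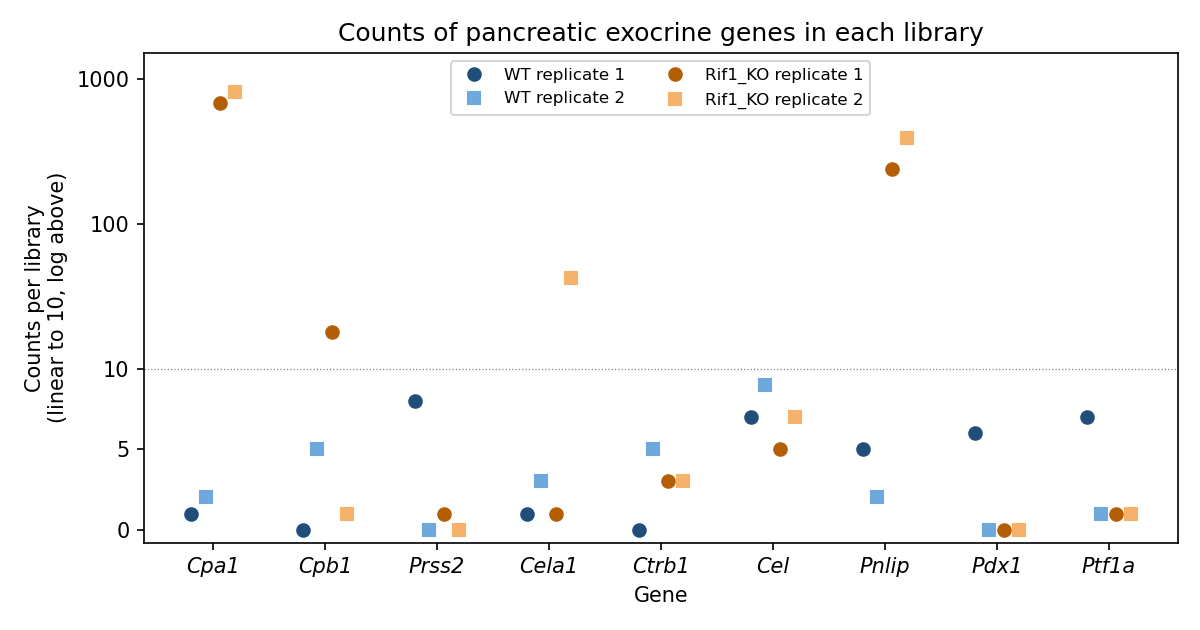
Counts of the 9 genes in each of the 4 libraries; the vertical axis is linear up to 10 counts (dotted line) and logarithmic above, and each point is 1 library. Cpa1 (679 and 806) and Pnlip (236 and 390) stand above 100 counts in the libraries labelled Rif1_KO, while Pdx1 and Ptf1a stay under 10 in all 4.

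Summed over the 7 genes other than Cpa1 and Pnlip, the counts came to 29 and 23 against 29 and 54, and 42 of those 54 were Cela1. Cpa1 alone held 71.9% and 64.5% of all counts of the 9 genes in the libraries labelled Rif1_KO. The high counts of Cpa1 and Pnlip were therefore not accompanied by like counts of the other enzymes or of the regulators.

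The filter on low counts left 15466 genes, and 2 of the 9 passed it, Cpa1 and Pnlip, both by way of the label in which they were high. The edgeR quasi-likelihood test called 0 of these 2 at an adjusted p under 0.05, beside 0.0129% of all tested genes in either direction and 0% in the higher direction. With all libraries Cpa1 had an edgeR adjusted p of 0.377 and Pnlip one of 0.571. The edgeR call depended on the setting: without the filter on low counts Cpa1 passed (adjusted p of 2.02e-05) and Pnlip did not (0.196). With WT replicate 1 left out, both passed edgeR (adjusted p of 0.000253 for Cpa1 and 0.0161 for Pnlip), as they did with WT replicate 2 left out (0.000105 and 0.0385). With either library labelled Rif1_KO left out, neither passed edgeR. Both were among the genes higher at an unadjusted p under 0.05, with a background of 5.35% (3.05% in the lower direction). DESeq2 called both higher, beside 2.13% of tested genes (1.24% called lower). Both had CPM values that did not overlap between the labels, as had 21% of tested genes and 10.2% of all genes of the table in the higher direction. Since Cpa1 was chosen from this same comparison, nothing is read from these shares.

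To place the pattern among all genes, those at 3 counts or fewer in both libraries of a label and at 100 counts or more in both of the other label were counted. Of the tested genes 0.278% (43 genes) were of this kind with high counts under the label Rif1_KO, Cpa1 among them, and 0.0194% (3 genes) with high counts under the label WT. Pnlip is not one of the 43, because WT replicate 1 had 5 counts. Gaps of this size also occurred between libraries of a single label, where the rule is looser because only 1 library is needed on each side. In WT, 220 tested genes (1.42%) had 3 counts or fewer in replicate 1 and 100 or more in replicate 2, and 258 (1.67%) the reverse. Between the libraries labelled Rif1_KO there were 65 such genes (0.42%) with the high value in replicate 2 and 23 (0.149%) with the high value in replicate 1. A jump from the floor to 100 counts or more was thus also seen between replicates of a label.

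Within the libraries labelled Rif1_KO, Cpa1 was higher than Pnlip also per length, at 51.5 and 54.5 TPM against 21.1 and 31.05 TPM, a ratio of 2.44 and 1.75. Cpa1 stood at the 95.3 and 94.2 percentile of length-scaled levels among the genes with at least 1 count in these libraries. In the libraries labelled WT it was at 0.0633 and 0.139 TPM. The pancreatic lipase gene was at 0.373 and 0.163 TPM there, so in those libraries both genes rest on single-digit counts and their order carries no information.

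None of the 1553 words of 31 bases in the longest Cpa1 transcript (GENCODE M21) occurred in a transcript of another gene, and the same was true of the 1457 words of Pnlip. No other gene of the table shares exonic bases with Cpa1 or with Pnlip.

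**Figure D2:**
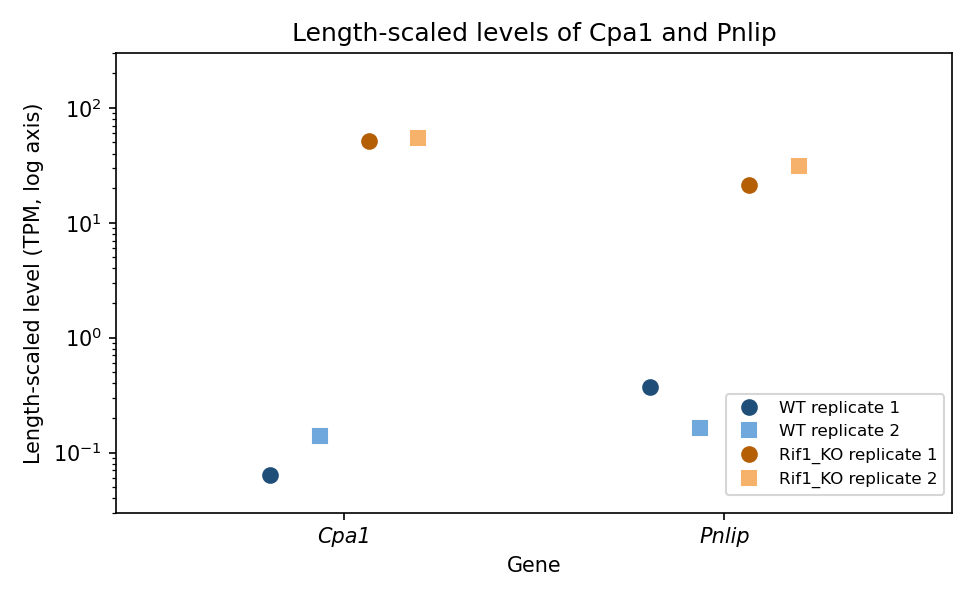
Length-scaled levels (TPM, logarithmic axis) of Cpa1 and Pnlip, each point being 1 library. Both genes lie under 1 TPM in both libraries labelled WT and above 20 TPM in both labelled Rif1_KO.

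On chromosome 6 the genes around Cpa1 did not share its pattern. On the side of lower coordinates, Cpa5, a carboxypeptidase gene that ends 7472 bases away, had 6 and 1 counts against 7 and 3. Further on, Cpa4, another gene of this cluster, had 274 and 2 counts against 24 and 83, with the highest value in WT replicate 1. Gm13781, within the span of Cpa4, had 1 and 0 counts against 24 and 4. On the other side Cep41, a centrosomal protein gene that begins 8093 bases away, had 49 and 157 counts against 233 and 251, a log2 fold change of 0.53 (SE 1.25). The imprinted gene Mest was abundant throughout, with 4887 and 3178 counts against 5410 and 12321 and a log2 fold change of 0.42 (SE 0.34). Copg2, a coatomer subunit gene on the other strand whose end overlaps that of Mest, so that reads of the overlap cannot be assigned, had 3156 and 1919 counts against 4344 and 7856. None of the neighbours with 10 or more counts in every library had a fitted change near that of Cpa1.

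**Figure D3:**
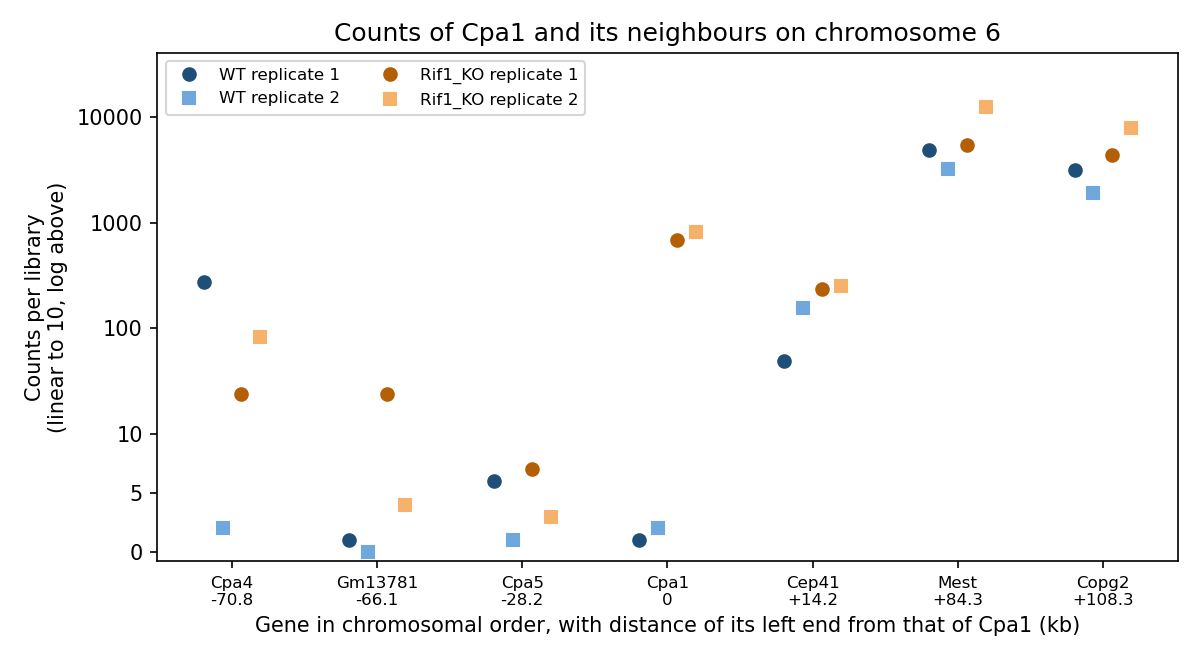
Counts per library (axis linear to 10, logarithmic above) of Cpa1 and its nearest genes in chromosomal order, with the distance in kb between the left ends of each gene and of Cpa1. Of the genes drawn, only Cpa1 goes from under 10 counts in both libraries labelled WT to over 100 in both labelled Rif1_KO.

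Other genes of acinar cells were read from a list of 37 genes for digestive enzymes and secretory proteins. Of these, 30 did not pass the filter on low counts, and 23 had fewer than 10 counts in every library. Of the 7 tested, 0 passed the edgeR test over all genes and 1 was higher at an unadjusted p under 0.05; the median log2 fold change was 1.31, beside -0.11 for all tested genes. That gene is Pnliprp2, for a pancreatic lipase-related protein, encoded on chromosome 19 like Pnlip. Its counts were 5 and 3 in the WT libraries and 75 and 24 in the others (log2 fold change 3.10, SE 1.28, edgeR adjusted p = 0.586). Its labels did not overlap, yet the libraries labelled Rif1_KO differed by more than a factor of 3 in counts.

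Other tested genes of the list differed widely between the libraries labelled WT. Rnase1, for the pancreatic type of ribonuclease that endothelial cells also make, had 390 and 0 counts against 62 and 30. Fkbp11, for a chaperone of the secretory pathway, had 9 and 108 counts against 375 and 203. The nuclease gene Dnase1 had 54 and 0 counts against 95 and 217. Amy1, the salivary and hepatic amylase gene, had 9 and 87 counts against 281 and 76, and was named after its values were seen. The phospholipase gene Pla2g1b, named likewise, had 0 and 72 counts against 73 and 115. In each of these 5 genes at least 1 library labelled WT was at 9 counts or fewer while the other had over 50. Genes that are abundant in the mature pancreas were near the floor everywhere: Clps, the cofactor of Pnlip, had 6 and 0 counts against 3 and 5, Ctrc 6 and 12 against 4 and 4, and the pancreatic amylase gene Amy2a5 0 and 0 against 0 and 1; these 3 were also chosen after their values were seen.

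**Figure D4:**
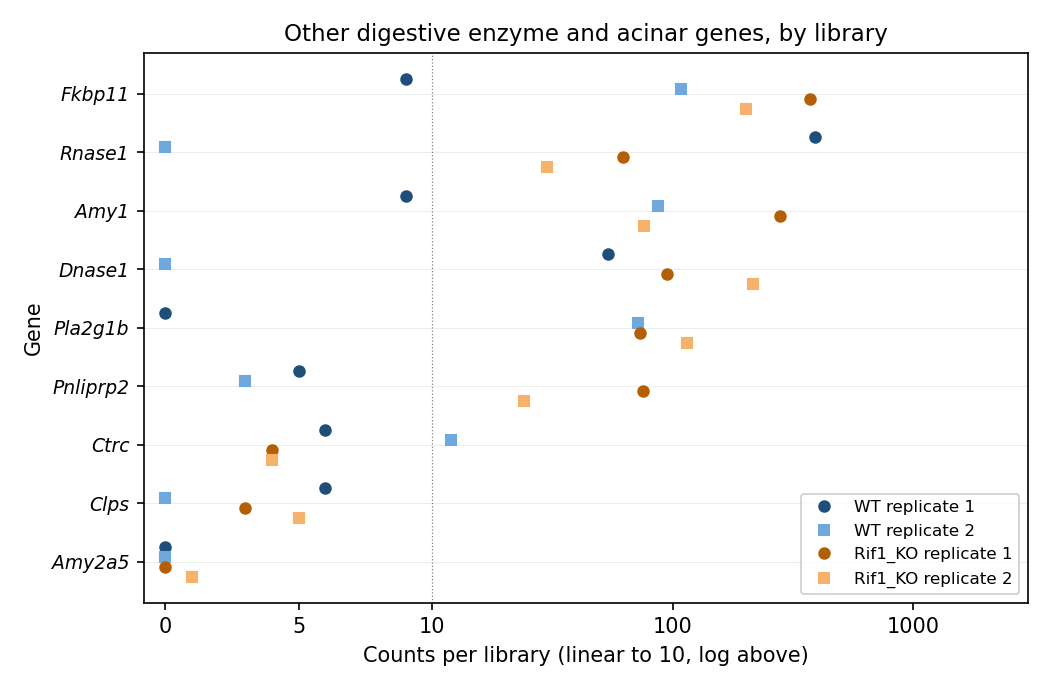
Counts in each library of the further digestive enzyme and acinar genes named here, ordered by summed counts, with 1 point per library; the axis is linear up to 10 counts (dotted line) and logarithmic above. Pnliprp2 is higher in both libraries labelled Rif1_KO (75 and 24) than in those labelled WT (5 and 3), and Clps stays under 10 in all 4.

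The wider set of pancreatic regulators, 25 genes, included 11 tested genes, of which 0 passed the edgeR test over all genes and 0 had an unadjusted p under 0.05, with a median log2 fold change of 0.09. Several of them also act in the gonad or its mesenchyme. Gata6 had 543 and 852 counts against 418 and 596, and Tcf7l2 104 and 139 CPM against 63.9 and 82.1 CPM. Nr5a2, an acinar regulator that also acts in pluripotent cells and granulosa cells, had 4 and 76 counts against 6 and 13. Rbpj, the Notch effector whose protein can also be part of the PTF1 complex, had 50 and 90 counts against 293 and 434 (log2 fold change 1.66, SE 1.16, edgeR adjusted p = 0.757). Its acinar counterpart Rbpjl, named after its values were seen, had 1 and 6 counts against 7 and 8.

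Genes of the islet had few counts, and 20 of 26 pancreatic endocrine genes had fewer than 10 counts in every library. Of the 4 that were tested 0 passed, and their median log2 fold change was 0.46. Pax6, a regulator of islet, eye and brain cells, had 6 and 16 counts against 13 and 26. The list as a whole came to 37.3 and 17.7 CPM against 42.8 and 29.4 CPM.

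Among 15 carboxypeptidase genes other than Cpa1 and Cpb1, 11 were tested and 0 passed the edgeR test over all genes. At an unadjusted p under 0.05, Cpxm2 was higher and Cpe was lower, with a median log2 fold change of -0.85. Cpe, which processes peptide hormones, had 321 and 280 CPM against 87.7 and 138 CPM (log2 fold change -1.41, SE 0.37, edgeR adjusted p = 0.571). Cpxm2 had 6 and 3 counts against 62 and 36, Cpxm1 54.4 and 58.0 CPM against 21.9 and 30.7 CPM, and Cpz 3 and 24 counts against 70 and 150. The list held genes that were higher and genes that were lower under the label Rif1_KO. Of 9 inhibitor genes of serine proteases and carboxypeptidases, 4 were tested and 0 passed, with a median log2 fold change of 0.41. Lxn, which encodes the carboxypeptidase inhibitor latexin, had 147 and 36.1 CPM against 70.7 and 84.5 CPM, and Spink1, for the trypsin inhibitor of acinar cells, had 0 and 0 counts against 1 and 0 and was named after its values were seen.

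Profiles over the 4 libraries were compared with that of Cpa1 by the distance between centred log2 CPM values. Among the 5 most alike were Spin2c, a spindlin family gene (0 and 1 counts against 434 and 303), the zinc finger gene Zfp54 (0 and 1 against 181 and 208), Ly6d, of the Ly6 antigen family (0 and 1 against 153 and 250), and the Polycomb gene Bmi1 (4 and 7 against 620 and 637). None of these is a pancreatic enzyme gene, and their distances ran from 0.70 to 1.44 on the log2 scale. Pnlip came at rank 32 of 15465 genes, at a distance of 2.18. With 4 libraries of 2 labels, any gene with a large and even gap between the labels comes out as alike.

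The labelled cell type was checked against marker lists, and the summed levels of several lists also differed between the labels. The 14 germ cell markers together reached 56.7 and 546 CPM in the WT libraries and 44.2 and 37.5 CPM in the others, so that 1 library, WT replicate 2, stood apart. That order is of the sum, and not every marker of the list followed it. Dazl, an RNA-binding protein gene of germ cells, had 141 and 1821 counts against 27 and 77. The pluripotency gene Sox2 was at 0 in 2 libraries and Mael at 0 in 1; this pair was chosen after the values were seen. Of the 10 germ cell markers tested, 0 passed, while 1 had an unadjusted p under 0.05 on the higher side and 4 on the lower, with a median log2 fold change of -2.94. Erythroid markers, of which 1 of 14 was at 0 in Rif1_KO replicate 2, summed to 138752 and 113236 CPM against 9908 and 4282 CPM. At an unadjusted p under 0.05, 11 were lower, and 2 of 13 tested, Hba-a1 and Hba-a2, were lower by edgeR (adjusted p of 0.036 for both), with a list median of -4.04. Stromal markers summed to 885 and 693 CPM against 2187 and 1768 CPM; of 12 tested, 0 passed and 6 were higher at an unadjusted p under 0.05, with a median of 1.595. Lum, a proteoglycan gene of fibroblasts, had 4 and 0 counts against 330 and 797, and Dcn 508 and 428 against 2533 and 4235. Lum and Acta2 (named after its values were seen) were at 0 in WT replicate 2, and 10 of the 12 stromal markers had higher CPM in both libraries labelled Rif1_KO. Over all tested genes, 21% did not overlap in the higher direction. At an unadjusted edgeR p under 0.05, 5.35% of all tested genes were higher and 3.05% lower. Supporting cell markers of the gonad summed to 820 and 889 CPM against 948 and 808 CPM (12 genes, 10 tested, 0 passed, median -0.02, none at 0). Endothelial markers summed to 266 and 114 CPM against 86.1 and 173 CPM (9 genes, 9 tested, 0 passed, median -1.16, none at 0).

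Markers of other endodermal organs were read as sums over lists. Such sums cannot be set against the step of Cpa1, a single gene chosen for its high counts. Gut and stomach genes summed to 33.4 and 39.6 CPM in the WT libraries and to 13.0 and 9.48 CPM in the others (15 genes, 5 tested, 0 passed, median -0.25). Liver genes summed to 185 and 167 counts against 268 and 397, or 20.2 and 21.0 CPM in the libraries labelled Rif1_KO (15 genes, 5 tested, 0 passed, median -0.29). Duct and endodermal epithelium genes summed to 228 and 317 CPM against 129 and 220 CPM (13 genes, 11 tested, 0 passed, median -0.24). In this list Krt8, a keratin of simple epithelia, had 84.4 and 103 CPM against 10.5 and 37.0 CPM, and Epcam 20.4 and 61.3 CPM against 3.24 and 9.27 CPM. Anxa4, named after its values were seen, went the other way, with 43.5 and 20.6 CPM against 68.3 and 52.3 CPM. Of the 11 tested duct genes, 3 did not overlap in the lower direction and 1 in the higher. The shares over all tested genes were 18.4% and 21%. Mast cell and granulocyte markers, which include the mast cell carboxypeptidase Cpa3, summed to 122 and 57.7 CPM against 16.8 and 3.39 CPM (11 genes, 3 tested, 0 passed, median -2.63). Cpa3 itself had 250 and 3 counts against 50 and 0, and the eosinophil peroxidase gene Epx 856 and 450 against 6 and 3. At an unadjusted p under 0.05, 1 duct gene (Krt8) and 1 mast cell or granulocyte gene (Epx) were lower, and 0 genes of the supporting cell, endothelial, gut, liver, endocrine and inhibitor lists were called. By DESeq2, 1 stromal marker was higher, 1 mast cell or granulocyte marker, 3 germ cell and 9 erythroid markers were lower, and 0 genes were called in the other 10 lists. Of all tested genes DESeq2 called 2.13% higher and 1.24% lower. The part of these marker lists in the values of Cpa1 and Pnlip was not tested, and in bulk libraries a change in the number of cells of a type cannot be told apart from a change in RNA per cell.

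The choice of genes with so few counts in the WT libraries fixes the sign of their fold changes, so only the sizes are compared across settings. Across 11 alternative fits the log2 fold change of Cpa1 ran from 7.71 to 8.86 and that of Pnlip from 5.36 to 6.42. The extremes for Cpa1 and Pnlip came from leaving out a library labelled WT.

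**Figure D5:**
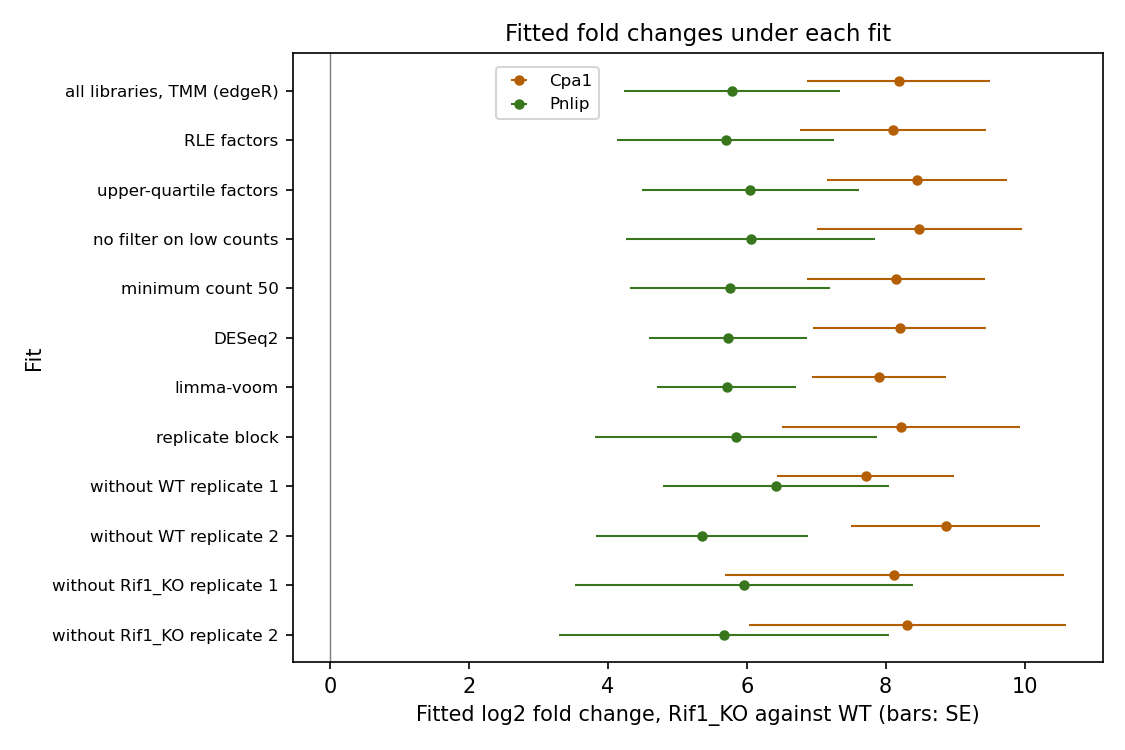
Fitted log2 fold changes (horizontal axis, bars are SE) of Cpa1 and Pnlip with all 4 libraries and under 11 alternative fits, 1 per line. Cpa1 stays between 7.71 and 8.86 and Pnlip between 5.36 and 6.42.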

How the data were processed

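A single table of raw counts was deposited, and its 4 columns, 1 for each library, were all used. Per the file headers, the authors counted read pairs with featureCounts 1.6.2 on GENCODE M17, with a mapping quality of at least 30, multi-mapping and multi-overlap options on and no strand option. Trim Galore, FastQC, HISAT2, SAMtools and the build mm10 are named per the submitters' processing notes. No normalization had been applied. Symbols were looked up by Ensembl identifier, and 95 identifiers had none.

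Groups and replicate numbers came from the sample titles. Libraries sharing a label differed beyond sampling noise (chi-square over its degrees of freedom 107 for WT and 86.6 for Rif1_KO). Genes were filtered with filterByExpr (minimum count 10) and fitted with edgeR 4.0.16 in R 4.3.3 (TMM factors 0.856 and 0.8 for WT, 1.107 and 1.319 for Rif1_KO, robust quasi-likelihood test, Benjamini-Hochberg at 0.05). Standard errors (SE) were derived from the fold change and the F statistic. Alternatives were RLE and upper-quartile factors, other filters, DESeq2 1.42.0, limma-voom (limma 3.58.1), a replicate block, and each library left out. Likeness used log2 CPM with a prior count of 2. Exact intervals are Clopper-Pearson on the summed counts of both labels.

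The members and the 14 lists (227 entries) were chosen with earlier results of these data known. Named were all members, Rif1, up to 4 genes per list (those past the threshold, otherwise those with the smallest p), the 5 genes most like Cpa1, and the 3 nearest genes on each side of it with at least 10 summed counts; others are marked in the text, and some genes that this rule names are not reported here. In simulated data for Rif1_KO against WT with 15466 genes, edgeR recovered 30% of 64-fold and 82% of 256-fold changes with 0 false calls, and DESeq2 86% and 98% with 70 false calls. Every simulated gene was given the common spread fitted over all genes. Real genes differ in spread, so these rates need not hold for the deposited data.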

Additional observations from a re-analysis of the deposited data

How the results depend on the processing

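With all libraries edgeR called 2 genes, 0 higher and 2 lower, and RLE factors and limma-voom also called 2. The count was 0 with upper-quartile factors (1350 genes at an unadjusted p under 0.05) and 0 with a minimum count of 50 (942 such genes), 54 without the filter on low counts (18 higher, 36 lower) and 521 by DESeq2 (329 higher, 192 lower). With 1 library left out it ran from 5 to 871, namely 871 when WT replicate 1 was left out, 545 for WT replicate 2, 5 for Rif1_KO replicate 1 and 6 for Rif1_KO replicate 2; these fits assume that a lone library varies as the remaining 2 do. With the replicate number as a replicate block the count was 7, with a log2 fold change of 8.22 for Cpa1 and 5.85 for Pnlip; nothing in the labels pairs the samples, and the deviations of same-numbered libraries had a correlation of -0.02 across 15466 genes. The log2 fold change of Cpa1 was 8.45 with upper-quartile factors, 8.48 without the filter and 7.90 by limma-voom, and with 1 library left out it ran from 7.71 to 8.86, and that of Pnlip from 5.36 to 6.42. The cause of these shifts was not tested. Over the tested genes the fold changes had a log2 median of -0.11 under TMM, of -0.19 under RLE and of 0.16 under upper-quartile scaling, so fold changes near 0 have no firm sign. Among 65 named genes, 33 of 701 alternative fits changed the sign of a fold change. The edgeR calls of Cpa1 and Pnlip also changed: Cpa1 passed without the filter (adjusted p of 2.02e-05), and both passed when either library labelled WT was left out, whereas under the other edgeR settings and limma-voom neither did. For the 7 members that were not tested, counts of 42 or fewer in every library limit the precision, and no exact permutation test of single values was run, since its smallest two-sided p is 0.333 in this design.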
